A study of Mus musculus with 79 samples.

Results

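The glucocorticoid response and metallothionein genes examined here were Tsc22d3, Fkbp5, Zbtb16, Sgk1, Cebpd, Mt1 and Mt2. They were taken by gene symbol, and all 7 were measured, of 22335 genes with a symbol and 35556 probesets in all. Each had a single probeset. Quadriceps muscle was taken from 29-week-old males of the BXD strains, which are inbred lines bred from C57BL/6J and DBA/2J, and of both parent strains. One group was fed a Harlan chow diet (CD) throughout, and the other a Harlan high fat diet (HFD) from 8 weeks of age. Both groups were fasted overnight, anesthetized with isoflurane and perfused before the muscle was frozen. An array measured evenly pooled RNA of about 5 males of a strain, so the 42 CD arrays and 37 HFD arrays were compared as strain pools and variation between single mice was not seen. There were 42 strains, 37 with arrays on both diets and 5 with CD alone.

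Glucocorticoids such as corticosterone enter the cell and bind the glucocorticoid receptor, which moves to the nucleus and turns on genes that carry its DNA elements. In skeletal muscle, fasting and stress hormones raise genes of this kind, among them regulators of protein breakdown and of insulin signalling. Metallothioneins are small cysteine-rich proteins that bind zinc and copper. They are induced by metals through the factor Mtf1 and by glucocorticoids, so they can follow both signals.

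The start regions of Mt1, Mt2 and Sgk1 are shown because both kinds of control element can be read in them. The sequences come from a RefSeq table of assembly GRCm38.p6, while the deposited array table names no build. Each runs from 250 bases before a listed start site to 30 bases after it, on the plus strand. In Mt1 and Mt2 the capitals mark the core of the metal response element, TGCACNC or TGCGCNC, on either strand. In Sgk1 they mark the glucocorticoid receptor motif AGAACA or its reverse complement TGTTCT.
Mt1, chr8:94178839-94179118: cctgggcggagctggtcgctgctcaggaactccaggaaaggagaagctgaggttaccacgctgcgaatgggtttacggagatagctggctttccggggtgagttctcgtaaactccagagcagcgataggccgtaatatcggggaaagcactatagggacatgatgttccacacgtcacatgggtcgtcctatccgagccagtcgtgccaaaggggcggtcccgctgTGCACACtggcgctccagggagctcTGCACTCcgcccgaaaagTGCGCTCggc
Mt2, chr8:94172368-94172647: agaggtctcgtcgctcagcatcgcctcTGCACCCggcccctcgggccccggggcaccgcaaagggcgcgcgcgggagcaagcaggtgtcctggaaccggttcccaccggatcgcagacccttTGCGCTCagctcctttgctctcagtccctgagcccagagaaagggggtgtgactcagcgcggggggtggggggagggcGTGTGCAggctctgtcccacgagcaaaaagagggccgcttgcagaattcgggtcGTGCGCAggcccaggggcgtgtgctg
Sgk1, chr10:21993640-21993919: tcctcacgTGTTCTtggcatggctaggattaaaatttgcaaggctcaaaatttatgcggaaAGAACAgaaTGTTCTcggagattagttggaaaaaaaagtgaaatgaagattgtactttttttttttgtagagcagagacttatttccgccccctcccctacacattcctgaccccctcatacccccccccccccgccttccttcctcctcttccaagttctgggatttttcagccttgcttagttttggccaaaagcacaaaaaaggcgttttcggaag

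The Mt1 window held 3 metal cores, which began 23 bases before the start site and 2 and 20 bases after it. The Mt2 window held 4, which began 223, 128 and 50 bases before the start site and 4 bases after it. Searched over 300 bases, 25.7% of the 32851 windows in the table held at least 1 such core, 7.11% held 2 or more and 0.517% held 4 or more. The motif AGAACA was not in the Mt1 or Mt2 window, and 6233 of the 32851 windows held it. One of 6 start regions listed for Sgk1, the one shown, held it 3 times, and 2 others held it once each. A pair of them, 189 and 180 bases before the start site, formed a palindrome of motif, 3 bases and reverse complement, which was present in 3 of the 32851 windows (0.00913%). The palindrome was in none of the windows of Tsc22d3 and Fkbp5. One of the 3 windows of Tsc22d3 held AGAACA once and the Fkbp5 window did not hold it. These are matches of letters in short windows, and elements outside them were not searched. Zbtb16 and Cebpd are named without sequence.

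Values are scores on a log-type scale, set by the authors to a mean of 8.0 and SD of 2.0 on every array. The log base is not stated, so folds, which take 1 unit as a doubling, are nominal. All 8 skeletal muscle markers lay at or above the 99.1 percentile of mean brightness. The sample titles place the arrays in 2 batches, the first of 18 CD and 17 HFD pools and the second of 24 CD and 20 HFD pools. Strain BXD63 ran against its diet labels: over 1154 olfactory receptor probesets its diet profile had r = -0.54 with the mean profile of the other 36 strains, against a median of 0.56. Every other strain had an r of at least 0.42, so these probesets shared a diet profile. Its source, and its part in the diet calls below, was not tested. The BXD79 array on HFD had the lowest median correlation with the other arrays, 0.975, followed by those of BXD69 (0.976) and BXD62 (0.977). The main results were run again without BXD63, without BXD79, and without BXD62, BXD69 and BXD79 together. In pooled tissue, fewer cells of a type and less RNA per cell cannot be told apart.

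The question of the diet comparison was whether HFD shifted these genes. Both Cebpd and Tsc22d3 were lower on HFD, in 31 of 37 strains each. Zbtb16 was lower in 28 strains but missed the threshold over all arrays. Differences of Mt1, Fkbp5 and Sgk1 were negative and did not pass the test, and that of Mt2 was near 0. In all, 2 of the 7 genes were called, both lower on HFD, at an adjusted p below 0.05 in limma over all 35556 probesets with diet and batch as terms. Of all probesets 38.1% were called, and 19.3% of all were called as lower on HFD, so calls were common on these arrays. The fit with diet and batch as terms leaves the pairing by strain out. With strain as a block Zbtb16 was called as well (limma, adjusted p = 0.00398), beside 40.6% of all probesets. With no block the same 2 genes were called without BXD63 and without BXD70. Zbtb16 joined them without BXD79 and without BXD62, BXD69 and BXD79. The median difference of the 7 genes was -0.16, beside -0.00066 over all probesets.

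**Figure D1:**
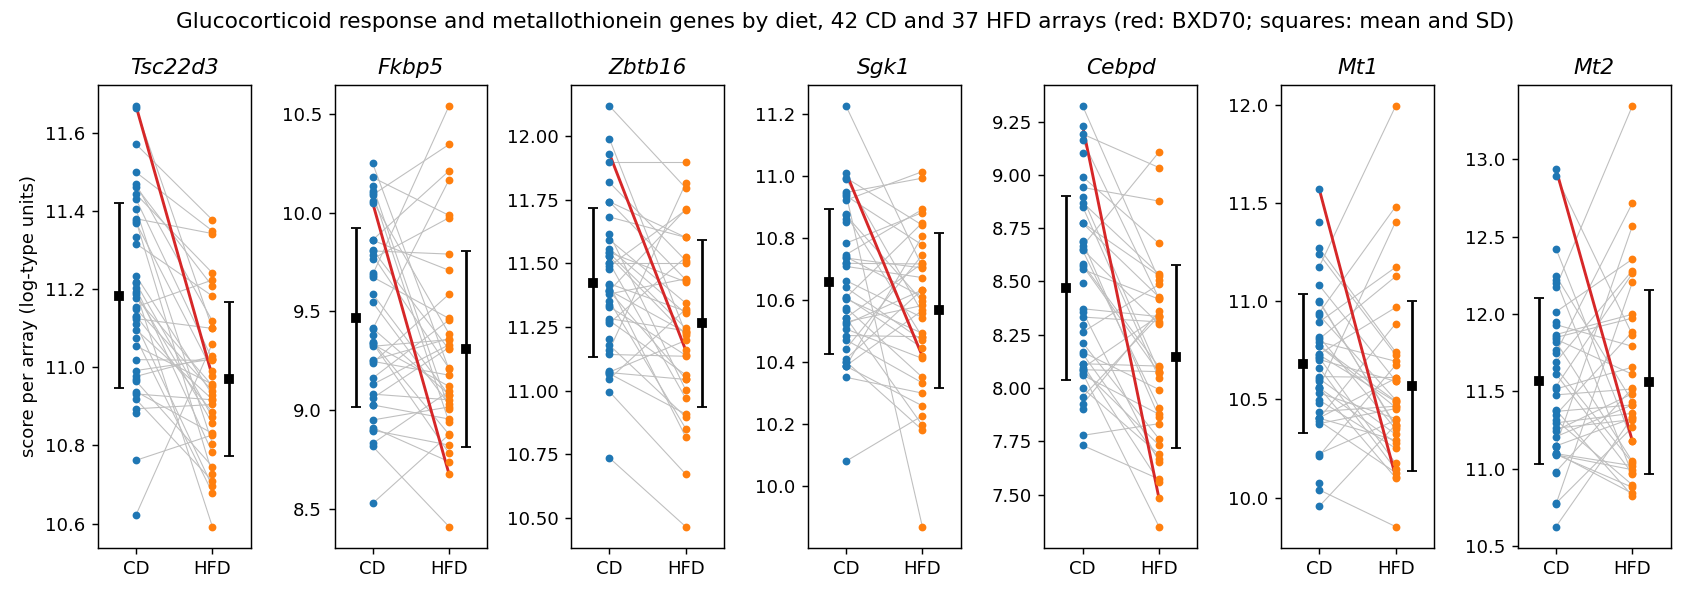
Score of each gene on each array (vertical axis, log-type units, scaled separately per gene) on CD and HFD, with grey lines joining the 37 paired strains and squares showing mean and SD; BXD70 is in red. The diets overlap for every gene, and Cebpd and Tsc22d3 fall in 31 of 37 strains.

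Tsc22d3 encodes GILZ, a leucine zipper protein that carries anti-inflammatory effects of glucocorticoids. Its scores on CD ran from 10.622 in BXD90 through a median of 11.167 to 11.67 in BXD70. On HFD they ran from 10.592 in BXD51 through 10.953 to 11.378 in BXD83. The diets overlapped over most of their range, with the HFD values shifted down. The difference, HFD minus CD, was -0.21 (SE 0.049, adjusted p = 0.000293, limma). BXD90 had the highest difference among the strains, at 0.439, and BXD70 the lowest, at -0.693.

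Cebpd encodes a C/EBP transcription factor induced by glucocorticoids and by inflammatory signals. On CD it ranged from 7.731 in BXD45 through a median of 8.432 to 9.323 in BXD43, and on HFD from 7.35 in BXD84 through 8.099 to 9.107 in BXD79. Its groups overlapped as well. The difference was -0.32 (SE 0.0957, adjusted p = 0.00496, limma), the most negative of the 7. The BXD79 array that set the top of the HFD range is the one least like the other arrays. Without BXD70, whose values were singled out after they were seen, Cebpd still passed (adjusted p = 0.0126), and so did Tsc22d3 (adjusted p = 0.000571). Without BXD79 Cebpd differed by -0.34 (adjusted p = 0.00253, limma) and Tsc22d3 had an adjusted p of 0.000216. Without BXD63 the values were 0.0053 and 0.000278.

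Zbtb16 encodes PLZF, a zinc finger repressor with a strong glucocorticoid response in many tissues. Its CD scores ran from 10.736 in BXD63 through 11.405 to 12.118 in BXD73, and its HFD scores from 10.466 in BXD63 through 11.235 to 11.897 in BXD43. The lowest value on each diet thus came from the strain whose labels are in doubt. The difference was -0.16 (SE 0.0691, adjusted p = 0.0603, limma). With strain as a block, which compares the 2 arrays of each strain, it was -0.18 with an adjusted p of 0.00398, and 3 of the 7 genes were then called, beside 40.6% of all probesets. Without BXD63 the blocked adjusted p was 0.00539 and the fit with no block gave -0.15 (adjusted p = 0.0502, limma). Without BXD79 the fit with no block gave 0.0443.

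Fkbp5 encodes an immunophilin that binds Hsp90 and lowers the receptor's affinity for hormone, and so acts as feedback. Scores on CD ran from 8.528 in BXD80 through 9.3955 to 10.249 in BXD98, and on HFD from 8.41 in BXD49 through 9.206 to 10.54 in BXD79. The spread between strains was wide on both diets beside the shift. Fkbp5 was lower on HFD in 23 strains, with a difference of -0.16 (SE 0.105, adjusted p = 0.239, limma). Sgk1 encodes a kinase of the insulin and mineralocorticoid pathways that acts on ion transport. It ran from 10.079 in BXD43 through 10.624 to 11.226 in BXD87 on CD and from 9.868 in BXD68 through 10.582 to 11.014 in BXD44 on HFD. Sgk1 was lower in 24 strains, with a difference of -0.09 (SE 0.0542, adjusted p = 0.171, limma).

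The metallothioneins are a pair of neighbouring paralogs on chromosome 8, and how far each probeset also binds the other transcript was not tested. Mt1 ran from 9.956 in C57BL/6J through 10.6815 to 11.569 in BXD70 on CD, and from 9.852 in BXD55 through 10.465 to 11.994 in BXD44 on HFD. Mt2 ran from 10.626 in C57BL/6J through 11.497 to 12.938 in BXD70 on CD, and from 10.826 in BXD99 through 11.413 to 13.346 in BXD44 on HFD. For both genes the ranges of the diets overlapped over most of their length. The difference of Mt1 was -0.11 (SE 0.0874, adjusted p = 0.321, limma) and it was lower in 24 strains. That of Mt2 was -0.003254 (SE 0.125, adjusted p = 0.987, limma), with 16 strains lower and 21 higher. Its interval reached from -0.25 to 0.25, so a shift of either sign within it was not detectable, and the sign itself turned when each array was centred on its median (0.014). With strain as a block and without BXD62, BXD69 and BXD79, the 3 strains whose HFD arrays were least like the rest, Mt1 (-0.18, adjusted p = 0.0428, limma) and Fkbp5 (-0.22, adjusted p = 0.0235) were called too. That made 5 of the 7 genes, all lower on HFD, beside 38.9% of all probesets.

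Within batch 2 alone, Cebpd (-0.34, adjusted p = 0.0392, limma) and Tsc22d3 (-0.21, adjusted p = 0.00604, limma) were called, beside 24.4% of all probesets. Within batch 1 alone, limma called 0 of the 7, with 2 below an unadjusted p of 0.05, beside 12.6% of all probesets called. The differences of Cebpd and Tsc22d3 there were -0.30 (adjusted p = 0.182) and -0.22 (adjusted p = 0.0751). The diet by batch interaction called 0 of the 7 and 0 of 35556 probesets in limma, with or without the strain block. At an unadjusted p under 0.05 there were 0 probesets without the block and 254 with it, and 0 of the 7 genes in either. Both counts are far below the number that unrelated p-values would give, so nothing was read from this test. Without the block the smallest p over all probesets was 0.134 (limma). The likeness of the diet differences in the 2 batches was therefore not read as a repeat either, and its source was not tested.

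Single strains differed far more than the group means. In 9 of the 37 paired strains all 7 genes were lower on HFD, and in 2 strains 1 gene alone was. BXD70 had the lowest difference of all strains in 6 of the 7 genes: -1.464 for Mt1, -1.758 for Mt2, -1.373 for Fkbp5, -0.693 for Tsc22d3, -0.772 for Zbtb16 and -1.747 for Cebpd. On CD, this strain had the highest Mt1, Mt2 and Tsc22d3 of 42 strains and the second highest Sgk1 and Cebpd. On HFD its Fkbp5 (8.676) and Cebpd (7.482) were the second lowest of 37. Neither BXD70 array stood apart from the rest over all probesets, with median correlations of 0.986 on CD and 0.987 on HFD.

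Among strains with the highest mean differences, some moved in one direction and some did not. BXD90 was higher on HFD in 6 of the 7 genes, by 0.179 in Sgk1 to 0.534 in Mt2, with -0.005 in Mt1. BXD97 was higher in 5, with 0 in Zbtb16 and -0.015 in Tsc22d3. In 0 of the 37 strains were all 7 genes higher. BXD69 was higher on HFD by 0.84 in Mt1, 1.42 in Mt2 and 0.756 in Fkbp5. Its HFD array was the second least like the other arrays, and its CD array was run in batch 1 and its HFD array in batch 2, so batch and diet cannot be told apart in this strain. BXD68 had the highest difference in Mt2 (1.434) and Zbtb16 (0.655) and the lowest in Sgk1 (-1.074). BXD44 was higher on HFD in Mt1 by 0.818 and in Mt2 by 1.171, where its array gave the highest value of that diet. Each such value is a difference of 2 arrays with no replicate within the strain.

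**Figure D2:**
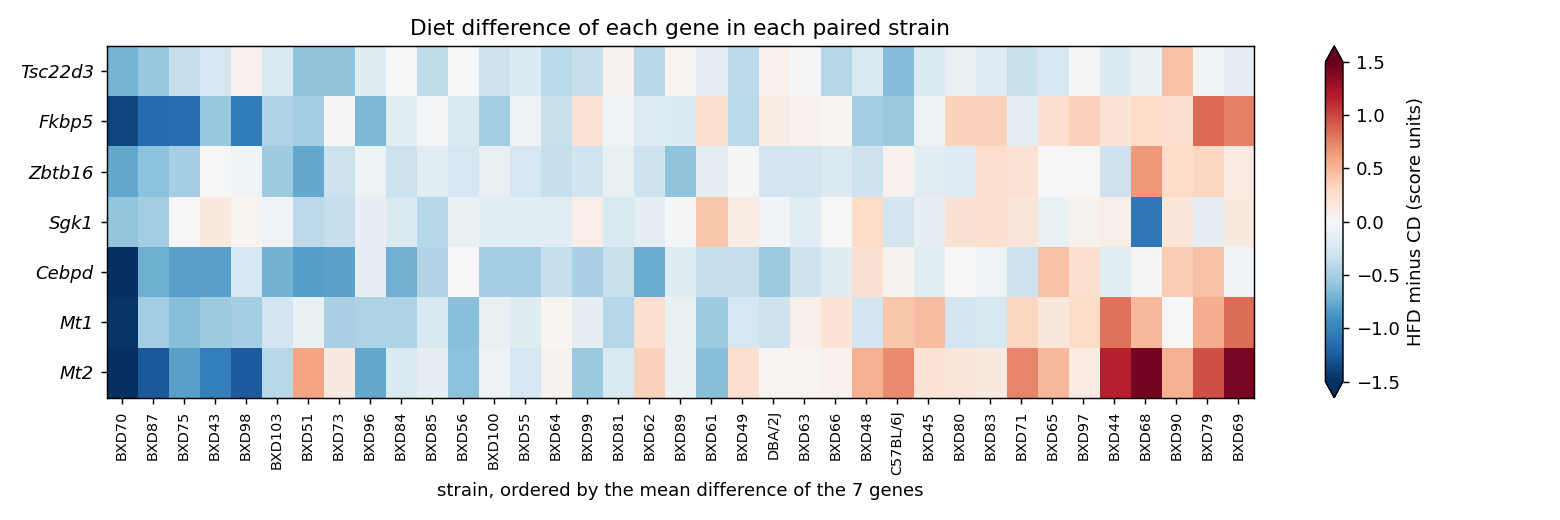
Difference HFD minus CD (colour, score units, clipped at 1.5) of the 7 genes (rows) in the 37 paired strains (columns, ordered by their mean difference). BXD70 at the left is low for all 7 genes, and BXD68 is high for Mt2 and Zbtb16 but low for Sgk1.

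The parents were each measured on 1 array a diet. On CD, C57BL/6J had the lowest Mt1 (9.956) and Mt2 (10.626) of 42 strains and the second lowest Cebpd (7.778), where DBA/2J had 10.771, 11.478 and 8.111. On HFD the values of C57BL/6J were 10.371, 11.334 and 7.833, which ranked 14, 16 and 10 from the bottom of 37. For these 3 genes the strain was at the low end on CD and not on HFD. Its Fkbp5 stood the other way, at 9.34 and rank 19 of 42 on CD and at 8.782 and rank 4 of 37 on HFD. For Tsc22d3 the parents stood the other way on CD, with 11.376 in C57BL/6J and 10.762 in DBA/2J, the second lowest of all. On HFD they were close, at 10.727 and 10.827, ranks 5 and 9 from the bottom.

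The spread between strains was wide for most of the 7 genes. The SD over CD strains was 0.536 for Mt2, 0.453 for Fkbp5, 0.431 for Cebpd, 0.355 for Mt1, 0.292 for Zbtb16, 0.238 for Tsc22d3 and 0.235 for Sgk1, beside a median of 0.146 over the 22335 genes. These SDs lay between the 92.0 and the 99.4 percentile of all genes on CD. On HFD they lay between the 79.6 percentile, for Tsc22d3 (0.197), and the 99.6 percentile, for Mt2 (0.594). Between the extreme strains Mt2 spanned 2.312 units on CD, a nominal 4.97-fold, and 2.52 units on HFD, a nominal 5.74-fold. On HFD the top of that range was the single BXD44 array, 0.629 units above the next strain. Tsc22d3 spanned 1.048 and 0.786 units.

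Whether this spread belonged to the strains was asked from the 37 pairs. A limma F test over strains, with diet and batch as terms, called 4 of the 7 genes, beside 13.6% of all probesets. The called genes were Zbtb16 (adjusted p = 0.00218), Cebpd (0.00657), Fkbp5 (0.0186) and Tsc22d3 (0.0304). Sgk1 (0.0763), Mt1 (0.106) and Mt2 (0.245) did not pass, and Mt2 had a residual SD of 0.518 within strains beside its SD of 0.536 over CD strains. Without BXD63 Zbtb16 kept an adjusted p of 0.0168, and these 4 genes were called again without BXD79 and without BXD62, BXD69 and BXD79. Without BXD70 Mt1 was also called (0.0282). With dim probesets left out Sgk1 was called too (0.0364), beside a larger share of probesets, 5410 of 17778. In the strains with both arrays in one batch, only Zbtb16 (0.0187) and Cebpd (0.0406) were called.

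The same question was put as a correlation between the CD and HFD score of a strain, after batch means were removed, with two-sided permutation tests and p-values adjusted over 70 relations. The 4 genes called between strains were called here as well. Both tests use the same pairs of arrays and measure nearly the same thing, so this is not an independent result. Pearson's r was 0.548 for Zbtb16 (p = 0.00037, adjusted 0.000959) with a Spearman's rho of 0.472 (p = 0.00345). Without BXD63 the r of Zbtb16 was 0.462 (adjusted permutation p = 0.00891). Pearson's r was 0.497 for Cebpd (p = 0.00185, adjusted 0.00392), with a rho of 0.506 (p = 0.00179). For Fkbp5 r was 0.437 (p = 0.00646, adjusted 0.0113) and rho 0.419 (p = 0.0103), and for Tsc22d3 r was 0.435 (p = 0.00704, adjusted 0.012) and rho 0.447 (p = 0.00575). Over all probesets the median r was 0.14. Of all probesets 5.70% had an r as high as that of Zbtb16, 7.83% as that of Cebpd, 11.3% as that of Fkbp5 and 11.5% as that of Tsc22d3.

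By Pearson's r the other 3 genes did not pass over all strains. Sgk1 had r = 0.336 (permutation p = 0.0413, adjusted 0.061), Mt1 0.321 (p = 0.053, adjusted 0.0742) and Mt2 0.203 (p = 0.228, adjusted 0.28), with rho values of 0.385, 0.299 and 0.26. The rho of Sgk1 did pass (permutation p = 0.0198, adjusted 0.0322). Without BXD70 both Mt1 (0.443, adjusted permutation p = 0.0136) and Sgk1 (0.377, adjusted permutation p = 0.0398) passed. Without the 2 strains farthest from the median of the CD scores, r was 0.397 for Zbtb16, 0.412 for Cebpd, 0.447 for Fkbp5 and 0.543 for Tsc22d3, all still called. Strains extreme on HFD alone were kept in that setting. Mt1 was then called too (0.444, adjusted permutation p = 0.0185), and Mt2 (0.267) and Sgk1 (0.257) were not. Within batch 1 (12 strains) r lay between 0.322 and 0.706 and Zbtb16 alone was called. Within batch 2 (17 strains) it lay between -0.047 and 0.374, with 0 of 7 called and 0 below an unadjusted permutation p of 0.05. There r was above 0 for 6 of the 7 genes, with a median of 0.221 and 0.152 for Zbtb16. The batches were not compared with each other by a test. In the 8 strains with their arrays in different batches r ran from 0.104 for Mt1 to 0.838 for Sgk1.

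Most of the 7 genes also varied together across strains, and Sgk1, called with 1 of its 6 partners on each diet, was the exception. Of 21 pairs, 15 were called as correlated on CD, 13 on HFD and 13 in the difference between diets, and every called r was above 0. Among the r values of the 7 genes with the 22328 other genes, 3.99% were as far from 0 as the lowest called pair on CD (0.397), 15.8% on HFD (0.359) and 7.12% in the difference (0.412). A single axis held 55.9% of the variance of the 7 genes on CD and 52.0% on HFD. On that axis Cebpd, Fkbp5, Mt1 and Mt2 had loadings of 0.406 to 0.477, while Sgk1 had 0.136 and 0.163 and loaded most on the second axis. No gene met the strict rule set for separate clusters of strains on either diet. For Mt1 on HFD alone a mixture of groups fitted better than a single one, with a fall in the Bayesian information criterion of 2.25.

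**Figure D3:**
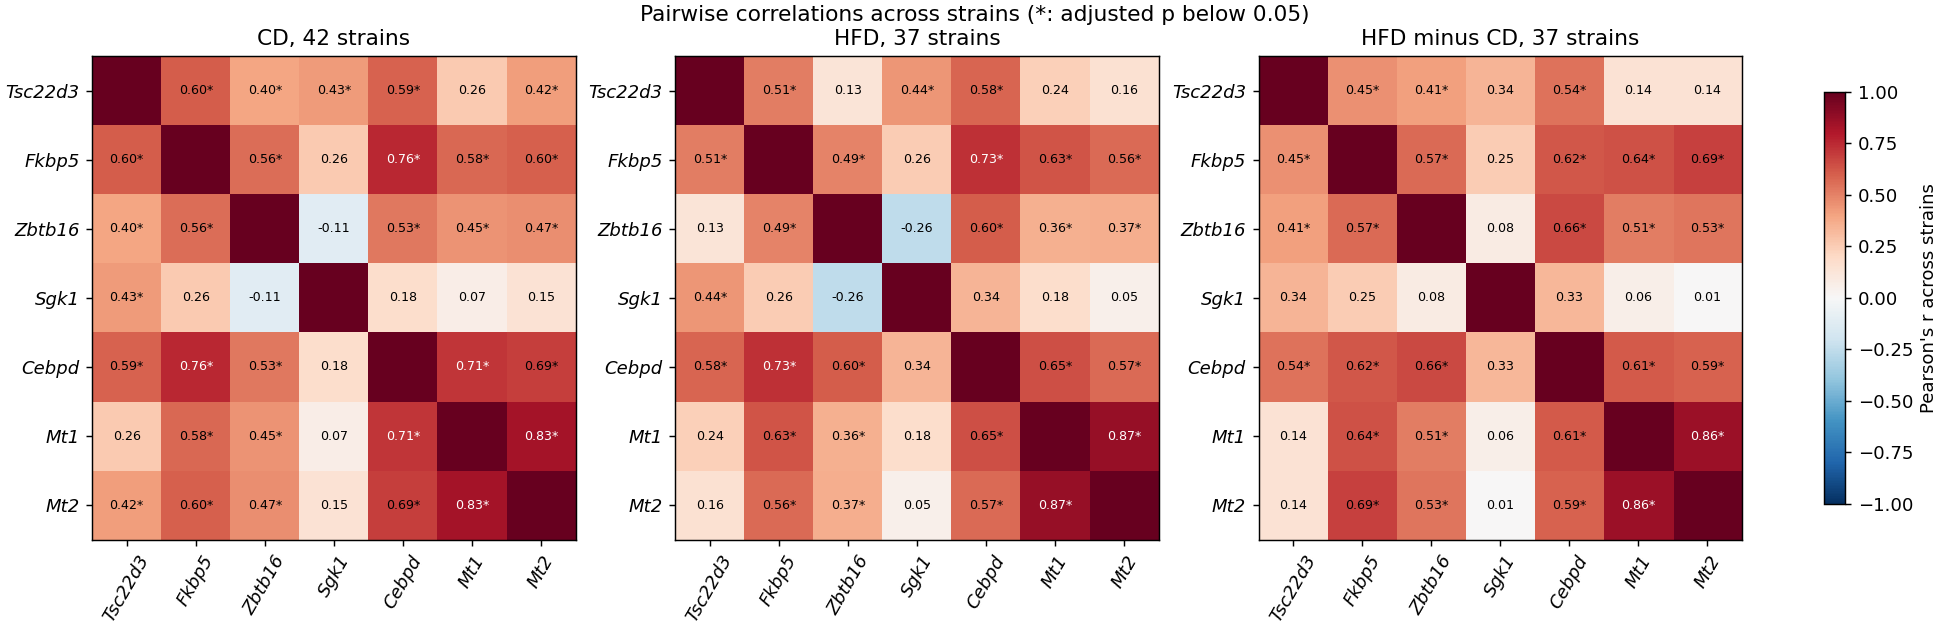
Pearson's r between each pair of the 7 genes across the 42 CD strains, the 37 HFD strains and the 37 differences (colour and printed value; stars mark an adjusted permutation p below 0.05). Mt1 and Mt2 reach 0.83 to 0.87, and the Sgk1 row is pale outside its cell with Tsc22d3.

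Mt1 and Mt2 were the closest pair, with r = 0.834 on CD, 0.868 on HFD and 0.857 in the difference (permutation p = 1e-05 each, the smallest the draws can give, adjusted 8.75e-05; rho 0.804, 0.737 and 0.824). Without the 2 strains farthest from the median in Mt1, r was 0.8, 0.779 and 0.802. Within batches it lay between 0.817 and 0.92. Among 22334 other genes Mt2 ranked 1 in its correlation with Mt1 on each diet.

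Fkbp5 and Cebpd came next on both diets, with r = 0.755 on CD, 0.733 on HFD (permutation p = 1e-05 each, adjusted 8.75e-05) and 0.62 in the difference (permutation p = 3e-05, adjusted 0.000162). Their rho values were 0.776, 0.697 and 0.534. Without the 2 strains farthest from the median in Fkbp5, r was 0.768, 0.694 and 0.485, and without BXD70 the difference gave 0.522 (adjusted permutation p = 0.00283). Without BXD79, whose HFD array held the highest Fkbp5 and Cebpd of that diet, r on HFD was 0.684. Cebpd was the number 8 gene of 22334 in its r with Fkbp5 on CD and number 26 on HFD.

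The metallothioneins were correlated with Cebpd and Fkbp5 too. Cebpd had r = 0.712 with Mt1 and 0.69 with Mt2 on CD, and 0.648 and 0.566 on HFD (permutation, all called). Fkbp5 had 0.577 and 0.596 on CD and 0.627 and 0.563 on HFD. Zbtb16 had lower values with them, 0.449 and 0.467 on CD and 0.359 and 0.365 on HFD, which were called as well. Tsc22d3 was correlated with Cebpd (0.594 on CD, 0.58 on HFD) and Fkbp5 (0.605 and 0.513), but with Mt1 (0.261 and 0.238) it was not called. With Mt2 it was called on CD (0.421, permutation p = 0.00563, adjusted 0.0104) and not on HFD (0.156, permutation p = 0.358, adjusted 0.411), and the diets were not compared by a test.

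Sgk1 was called with Tsc22d3 alone, at 0.427 on CD (permutation p = 0.00476, adjusted 0.00914) and 0.443 on HFD (permutation p = 0.0061, adjusted 0.011). Its r with Zbtb16 was -0.111 on CD and -0.256 on HFD, neither called. In the difference 0 of its 6 pairs passed the permutation test, with 2 below an unadjusted p of 0.05, and its r ran from 0.00739 with Mt2 to 0.339 with Tsc22d3 (permutation p = 0.0403, adjusted 0.061).

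Within batch 1 alone 11 pairs were called on CD, 3 on HFD and 3 in the difference, and within batch 2 alone 9, 11 and 11. The median r of the pairs was 0.596, 0.431 and 0.47 in batch 1 and 0.408, 0.536 and 0.668 in batch 2, beside 0.467, 0.443 and 0.51 over both. On CD, on HFD and in the difference, 15, 14 and 13 pairs were called without BXD63, 15, 12 and 12 without BXD70, 15, 11 and 13 without BXD79, and 15, 12 and 13 without BXD62, BXD69 and BXD79.

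**Figure D4:**
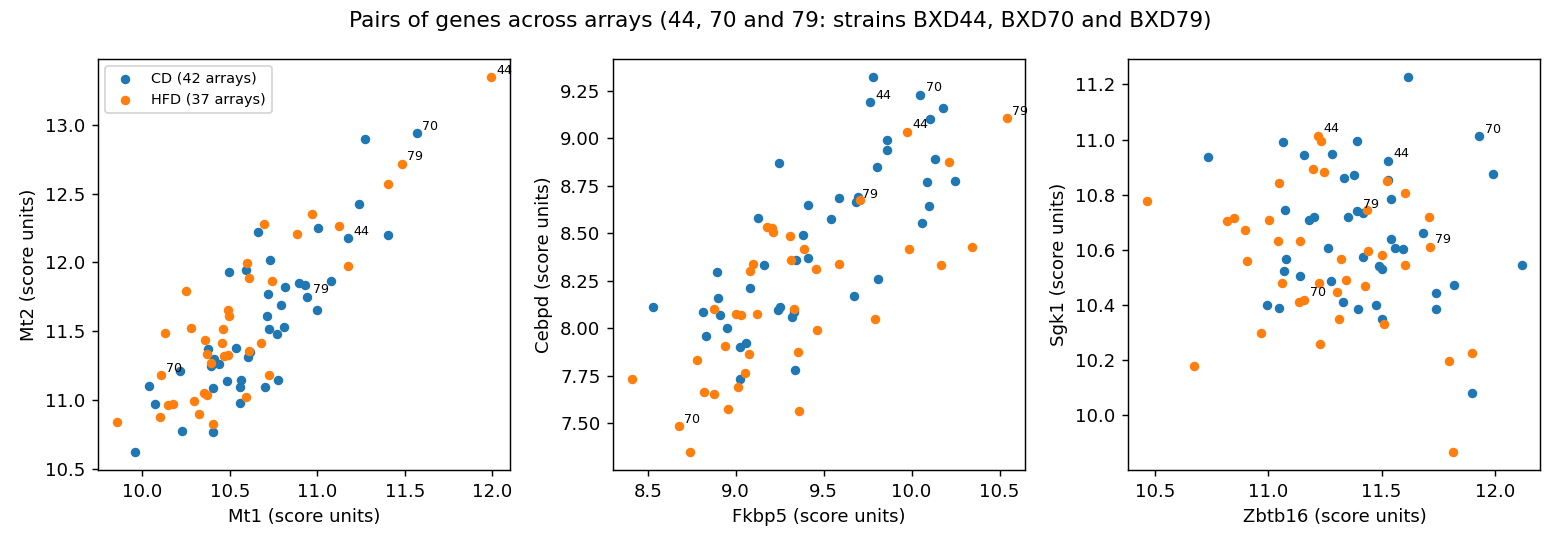
Scores of Mt1 against Mt2, Fkbp5 against Cebpd and Zbtb16 against Sgk1 (both axes in score units; 42 CD arrays in blue, 37 HFD arrays in orange; numbers mark strains BXD44, BXD70 and BXD79). The first 2 pairs rise together on both diets (r of 0.73 to 0.87), and Zbtb16 and Sgk1 do not.

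The genes most like each of the 7 were ranked by r over the 79 arrays after diet and batch means were removed, over 12563 genes of at least median brightness. The nearest 3 of each held 13 different genes outside the 7. Of these, 4 (Foxo1, Cdkn1a, Trim63 and Fbxo32) belong to the list of 22 other glucocorticoid induced genes taken up below, which makes up 0.175% of the ranked genes and was chosen with earlier results of these data known. Foxo1, a factor of the fasting response, was among the 3 closest to Mt1 (0.757), Mt2 (0.759) and Fkbp5 (0.8). Arrdc3, an arrestin-domain gene, was closest to Fkbp5 (0.832) and Tsc22d3 (0.69) and among the 3 closest to Cebpd (0.793). Cdkn1a, the cell cycle inhibitor p21, followed for Fkbp5 (0.792). Nfil3 (0.658) and Ankrd9 (0.643) followed for Tsc22d3.

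For Zbtb16 the closest were the ubiquitin ligases of muscle atrophy Trim63 (0.738) and Fbxo32 (0.68), then Klhl38 (0.633). Mt1 had Mt2 (0.851) and 1110038D17Rik (0.774) ahead of Foxo1, and Mt2 had Lrrc58 (0.726) after it. Cebpd had 8430408G22Rik (0.813) and 1110038D17Rik (0.796). Sgk1 had lower values than the rest, with Ankrd9 (0.588), Smyd2 (0.545) and 2810416G20Rik (0.519). These are descriptions over arrays that share diets and strains.

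Of 22 other genes known to be induced by glucocorticoids, 8 were called between diets, 7 of them lower on HFD and 1 higher, with a list median of -0.06, beside 38.1% of all probesets called and 19.3% called as lower. The share called, 8 of 22, was thus near that of all probesets. Lower genes were Trim63 (-0.34, adjusted p = 0.0063, limma), Arrdc2 (-0.31, adjusted p = 0.0193), Glul (-0.24, adjusted p = 0.0228), Errfi1 (-0.18, adjusted p = 0.00367), Fbxo32 (-0.17, adjusted p = 0.0279), Foxo1 (-0.17, adjusted p = 0.0125) and Klf15 (-0.12, adjusted p = 0.0129). Trim63 and Fbxo32 mark muscle proteins for breakdown, Glul makes glutamine, Errfi1 restrains EGF receptor signalling and Klf15 is a direct target of the receptor that drives amino acid breakdown. The exception was Angptl4 (0.54, adjusted p = 6.51e-06), an inhibitor of lipoprotein lipase that fatty acids also induce through PPAR receptors. It was higher in 31 of 37 strains. The Glul probeset had 0 of 10 probesets of neighbouring number on the chromosome of Glul, so its identity is uncertain.

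Of the 14 genes not called, the widest differences were those of Ddit4 (-0.24, adjusted p = 0.126, limma), Per1 (-0.12, adjusted p = 0.253), Dusp1 (0.12, adjusted p = 0.124) and Lcn2 (0.11, adjusted p = 0.259). Within batch 1 alone 1 of the 22 was called, higher on HFD, and 0 lower, beside 12.6% of all probesets called. Within batch 2 alone 3 were called, 1 higher and 2 lower, beside 24.4% of all probesets. With strain as a block 9 were called, beside 40.6%, since Klf9 was added (-0.11, adjusted p = 0.0239). Without BXD70 8 were called, beside 13306 of 35556 probesets. With each array centred on its median 7 were called, 6 of them lower, beside 13957 of 35556 probesets. Fbxo32 then missed the threshold (adjusted p = 0.0523).

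Supply of the hormone and its receptor was covered by 10 genes, of which 2 were called, beside 38.1% of all probesets. Nr3c2, the mineralocorticoid receptor, which also binds corticosterone, was higher on HFD (0.15, adjusted p = 0.000215, limma), in 31 of 37 strains. H6pd, which supplies NADPH to the corticosterone-regenerating enzyme Hsd11b1, was lower (-0.08, adjusted p = 0.0328). Its call was lost when each array was centred on its median (-0.06, adjusted p = 0.121) and without BXD70 (adjusted p = 0.0509), and under that centring 2 genes were called, both higher. With strain as a block 4 of the 10 were called, beside 40.6% of all probesets, since Hsp90aa1 (0.13, adjusted p = 0.0197) and Hsd11b2 (0.09, adjusted p = 0.0203) were added, and without BXD70 Nr3c2 was the gene called. The glucocorticoid receptor gene Nr3c1 differed by 0.03 (interval -0.02 to 0.08, adjusted p = 0.395) and Hsd11b1 itself by 0.04 (interval -0.07 to 0.16, adjusted p = 0.577). Among those not called without the block, Hsp90aa1 (0.12, adjusted p = 0.121), Hsd11b2 (0.08, adjusted p = 0.0719), Fkbp4 (-0.05, adjusted p = 0.0803) and Ptges3 (0.05, adjusted p = 0.16) had the widest differences. The probesets of Hsp90aa1 and Ptges3 had the same doubt of identity as that of Glul.

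Of 10 metal handling genes 5 were called, 3 lower and 2 higher on HFD, with a list median of -0.0074, beside 38.1% of all probesets called. Lower were the metallothionein Mt3 (-0.10, adjusted p = 0.0352, limma) and the metal importers Slc39a8 (-0.14, adjusted p = 0.000119) and Slc39a14 (-0.10, adjusted p = 0.0333). The Slc39a8 probeset was dim, at the 35.1 percentile of mean brightness. With dim probesets left out Slc39a8 was not tested, and 4 of 8 list genes were called, beside 5292 of 17778 probesets. Higher were the zinc exporter Slc30a4 (0.17, adjusted p = 0.00184) and the zinc importer Slc39a10 (0.12, adjusted p = 0.0364). Slc30a2, another zinc transporter, had the widest difference of those not called (-0.24, adjusted p = 0.0965), followed by Slc30a1 (0.04, adjusted p = 0.298), Mtf1 (0.03, adjusted p = 0.519) and Slc39a1 (-0.01, adjusted p = 0.783). Slc30a2 was lower in 31 of 37 strains, and it was called with strain as a block (-0.30, adjusted p = 2.11e-05) and with the 37 paired strains and no block (-0.31, adjusted p = 0.0332). Within batch 1 alone 1 was called, lower on HFD, beside 12.6% of all probesets. Within batch 2 alone 2 were called, 1 in each direction, beside 24.4% of all probesets. Slc39a14 missed the threshold when each array was centred on its median (adjusted p = 0.0977) and without BXD70 (0.053), and Mt3 did with strain as a block (0.0896), without BXD79 (0.0724) and without BXD62, BXD69 and BXD79 (0.244).

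**Figure D5:**
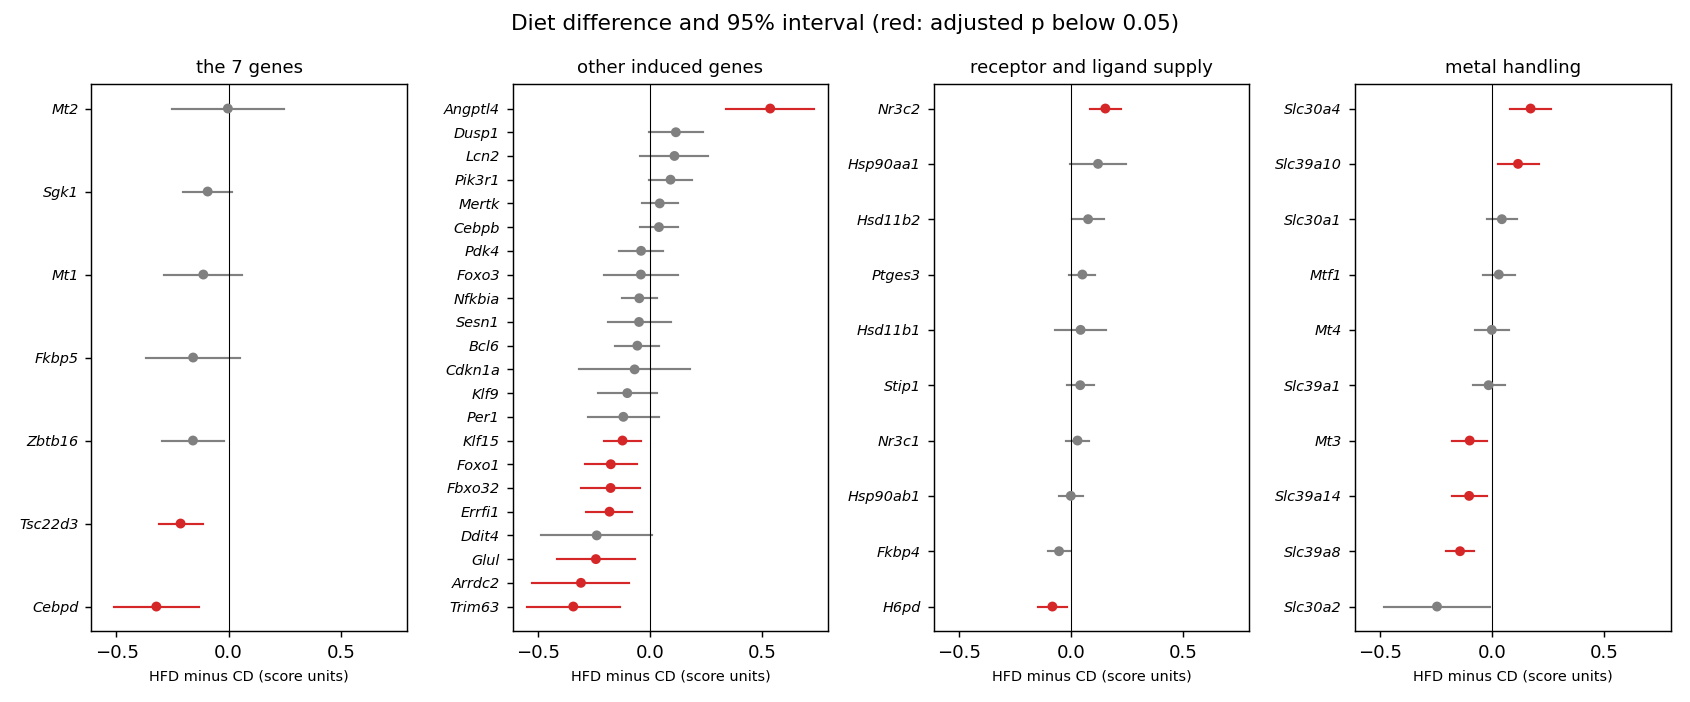
Difference HFD minus CD (horizontal axis, score units) with 95% intervals for the 7 genes and 3 related lists, in red where the adjusted p was below 0.05. Of the 22 other induced genes, 7 lie below 0 in red and Angptl4 above it.

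Some markers of other cells in the muscle moved with diet as well, read beside the 38.1% called of all probesets. Adipocyte and macrophage markers had a larger share called, endothelial markers a share of 3 in 6, and red blood cell, liver and skeletal muscle markers a smaller one. Of 8 adipocyte markers 5 were called higher on HFD and 1 lower, and the list mean per array ran from 9.67 to 11.2 on CD and from 9.8 to 11.6 on HFD. Of 8 macrophage markers 5 were higher and 0 lower, with ranges of 8.25 to 8.97 and 8.37 to 9.24. Of 6 endothelial markers 3 were higher (9.49 to 10.2 and 9.79 to 10.4), of 6 red blood cell markers 1 was (8.7 to 10.1 and 8.52 to 10.4), and of 3 liver markers 0 were, with 0 below an unadjusted p of 0.05 (7.13 to 9.74 and 7.03 to 9.67). Skeletal muscle markers held 1 higher and 1 lower of 8. No defining marker was at 0, since the scores have no true zero. Across strains, after batch means were removed, the 7 genes had r with the mean of the skeletal muscle markers between -0.37 and -0.0866, below 0 for each gene on both diets (42 CD and 37 HFD arrays). With the other lists r took both signs. It ran from -0.23 to 0.239 for adipocyte markers, from -0.32 to 0.453 (Mt2 on HFD) for macrophage markers, and from -0.40 (Tsc22d3 on CD) to 0.457 (Zbtb16 on HFD) for endothelial markers. For red blood cell markers it ran from -0.12 to 0.349 and for liver markers from -0.18 to 0.238. These are descriptions over arrays that share their scaling. The part these cells had in the diet differences of the 7 genes was not tested.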

How the data were processed

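RNA from 79 pools was hybridised to Affymetrix Mouse Gene 1.0 ST arrays, and the submitters' processing notes name Affymetrix Expression Console. The deposited values are a score per probeset, which the authors scaled to one mean and SD per array. The log base, summarization and any batch correction are not given in the sources used here. The tests were planned for log2 values and were run on the scores. The precision is limited by the number of arrays, which carry no counts.

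Diet was fitted with limma 3.58.1 (R 4.3.3; diet and batch terms, Benjamini-Hochberg over 35556 probesets, threshold 0.05), strain with an F test over the 37 pairs. Correlations used 100000 permutations (Python 3.11.15, numpy 2.4.6). Pairing comes from the strain in the labels: deviations of a strain's arrays had a median r of 0.214 and exceeded 0.1 in 33 of 37 strains. Steps were tested on simulated data. The 7 genes and all lists were chosen with earlier results of these data known, and p-values over strain pools measure only the spread between pools. A gene with several probesets was represented by the brightest. The text names the 7 genes, the called list genes and up to 4 others per list, the 3 most alike genes, the extreme strains, both parents and BXD63. Nr3c1 and Hsd11b1 are named for their role, outside that rule, and BXD44, BXD62, BXD69, BXD70, BXD79, BXD90 and BXD97 were picked from their values. Alternatives changed the batch term, block, strains, scaling, filter and test. The sample titled BXD92a was matched to a chow column headed BXD92.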

Additional observations from a re-analysis of the deposited data

How the results depend on the processing

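The 18 alternatives reuse the same arrays and are not independent repeats. Cebpd and Tsc22d3 were lower on HFD under all 18 and called in 17. Within batch 1 alone neither was called (0 of the 7 genes), and there the other glucocorticoid induced genes had 1 call, the receptor and supply genes 0 and the metal handling genes 1. Batch 2 alone gave 3, 1 and 2. Of all probesets 12.6% were called in batch 1 alone and 24.4% in batch 2 alone. The receptor and supply genes had 4 calls with strain as a replicate block, with quantile normalization again, and with the block without BXD63, BXD70 or BXD79, and 1 without BXD70. The replicate block added the call of Zbtb16, as did quantile normalization (adjusted p = 0.0479) and leaving out BXD79, and changed no other call among the 7. The block without BXD62, BXD69 and BXD79 gave 5 calls among them, with Mt1 and Fkbp5 added. Mt2 turned its sign with the 37 paired strains and no block (0.000984), in batch 1 alone (0.053), with arrays centred on their median (0.014), with the strain block (0.0079; 0.00696 without BXD63 and 0.058 without BXD70) and without BXD70 (0.0402), and was never called. Strains with both arrays in one batch gave 2 genes called between strains. Genes correlated between diets numbered 1 in batch 1 alone and 0 in batch 2 alone. Pairs numbered 9 on CD in batch 2 alone, and 3 on HFD and 3 in the difference in batch 1 alone. Fewer arrays enter each batch, and beyond that the cause was not tested. Other probesets of the 7 genes could not be run, as each has 1. Over all probesets 13551 were called, 4491 in batch 1 alone, 8691 in batch 2 alone and 5292 of 17778 with dim probesets left out. The methods' t-test had 3 of the 7 genes below 0.05 and 2 after Benjamini-Hochberg adjustment. Settings without BXD70, without BXD79, with the strain block without BXD63, or without BXD62, BXD69 and BXD79 were chosen after seeing the data.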
